A study of Mus musculus with 2 samples.

Results

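The liver stores TG in cytosolic lipid droplets. The 10 genes described here encode droplet proteins, lipases or regulators of a lipase. They are Adfp (now named Plin2), Cidea, Cideb, Cidec, Pnpla2, Abhd5, Lipe, Mgll, G0s2 and Lipc. They were chosen by name, as every non-control probe that carries one of these gene names, which gave 15 probes of 10 genes among the 27962 gene names of the array. Their mRNA was measured in the liver of male apoE-KO mice of the C57BL/6 strain. Aged 10 weeks, they stayed on normal chow or were switched to the high-Chol diet, a chow with 1.25% Chol added, and the liver was taken after 1 week. Both groups lack apoE, so the normal chow group is itself a hyperlipidemic model and no wild-type group is analysed here. Each diet had 3 one-colour arrays from independent experiments, and how many mice each array stands for is not given in the sources used here, so that p-values measure the spread between these arrays. The question was which genes of lipid storage and breakdown differ in these livers after 1 week of dietary Chol.

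Lipid droplets are bounded by a monolayer of phospholipids that holds coat proteins such as perilipin 2, the product of Adfp, which shields the stored lipid in hepatocytes. CIDE proteins sit where droplets touch and pass lipid from the smaller droplet to the larger. Stored TG is then cleaved in steps: adipose triglyceride lipase (Pnpla2) takes the first fatty acid, hormone-sensitive lipase (Lipe) cleaves diacylglycerol, and monoglyceride lipase (Mgll) cleaves the last ester bond. Abhd5 activates the first enzyme and G0s2 inhibits it, while hepatic lipase (Lipc) is secreted and acts on lipoproteins outside the cell.

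On 1 array, a gene is read by probes of 60 bases, and for 4 of these genes 2 probes gave a measured value. The 6 probe sequences below are shown because the results turn on them: the upstream probe of Pnpla2 and of Mgll, both probes of Lipe, and the probes of Cideb and G0s2. They are copied from the array annotation, 5′ to 3′, with positions on mm7, and all lie in the mRNA of the named gene. The capitals in G0s2 mark the start codon.
Pnpla2 probe A_52_P681771, chr7:137876465-137876524, plus strand: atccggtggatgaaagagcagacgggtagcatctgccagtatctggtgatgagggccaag
Mgll probe A_52_P609778, chr6:88898474-88900777, plus strand, across an intron: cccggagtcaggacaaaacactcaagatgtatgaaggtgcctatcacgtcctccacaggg
Lipe probe A_51_P435366, chr7:22170761-22173014, minus strand, across an intron: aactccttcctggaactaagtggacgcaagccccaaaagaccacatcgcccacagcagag
Lipe probe A_51_P435363, chr7:22170615-22170674, minus strand: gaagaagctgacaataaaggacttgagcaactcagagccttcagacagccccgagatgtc
Cideb probe A_52_P512365, chr14:50622503-50622562, minus strand: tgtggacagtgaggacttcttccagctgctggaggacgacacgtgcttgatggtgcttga
G0s2 probe A_52_P681391, chr1:192825383-192825442, minus strand: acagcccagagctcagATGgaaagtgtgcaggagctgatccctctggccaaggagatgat
Each of the 6 holds at least 1 reading frame with no stop codon over its 60 bases, as do 78.3% of all probes of the array. The other Pnpla2 probe (A_51_P197213) lies 770 bases downstream and the other Mgll probe (A_51_P139920) 2607 bases downstream, and both hold the letters AATAAA, the usual polyadenylation signal, at bases 40 and 45. These letters were searched on the probe strand only and occur in 4.78% of all probes and also in Lipe probe A_51_P435363 at base 13.

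Values are given as log2 signal over the 75th percentile of the same array, so that 0 is the level of that percentile, and a level is compared between arrays but not between genes. A gene with several probes is represented by its brightest, and the diets were compared with limma over 16730 genes at a Benjamini-Hochberg adjusted p under 0.05. The normal chow arrays and 1 high-Chol array lay on slide 1, and the other 2 high-Chol arrays lay on slide 2. The file headers give an older release of Agilent Feature Extraction, which turns the scanned image into spot values, for slide 2. The 75th percentile was 762 to 799 on slide 2 against 271 to 373 on slide 1. Between 50.5% and 67.2% of non-control spots were well above background on an array. Hepatocyte markers were well above background on all 6 arrays in 10 of 10 genes, as the liver label requires, with a summed signal (75th percentile = 1) of 3298 to 3463 on normal chow against 2537 to 2882 on the high-Chol diet.

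Of the 10 genes, 9 passed the filter for dim probes and were tested, and none differed between the diets at the adjusted threshold. Over all genes tested, 2.69% were called higher and 0.227% lower on the high-Chol diet. The lowest p among the 9 was that of Mgll (unadjusted p = 0.042, limma adjusted p = 0.22), and it was the only one of the 9 under an unadjusted 0.05, by limma, where 12.3% of all genes were higher and 8.83% lower. Lower means on the high-Chol diet were measured for 7 of the 9, where 52.2% of all genes had a lower mean. The median log2 difference was -0.40 against -0.02 over all genes. It was -0.14 against -0.11 with another background correction (normexp), and ran from -0.59 to -0.18 with an array left out. More than 1.5-fold lower was 1 of 9 genes, Cidec, where the background is 5.84%, and more than 1.5-fold higher was 0 of 9, where it is 15.4%. Among the 8 genes with a value on every array, the diets did not overlap for 1, Cidec, on the lower side, where the background is 14.0%, and for 0 on the higher side, where it is 11.9%. A single gene of 9 is 11.1%, so that none of these counts can be set apart from its background share. The 10 hepatocyte markers had a median log2 difference of -0.30, 9 of 10 means lower and 0 called (at an unadjusted limma p under 0.05, 1 higher and 2 lower), and their part in the lower means of the members was not tested.

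**Figure D1:**
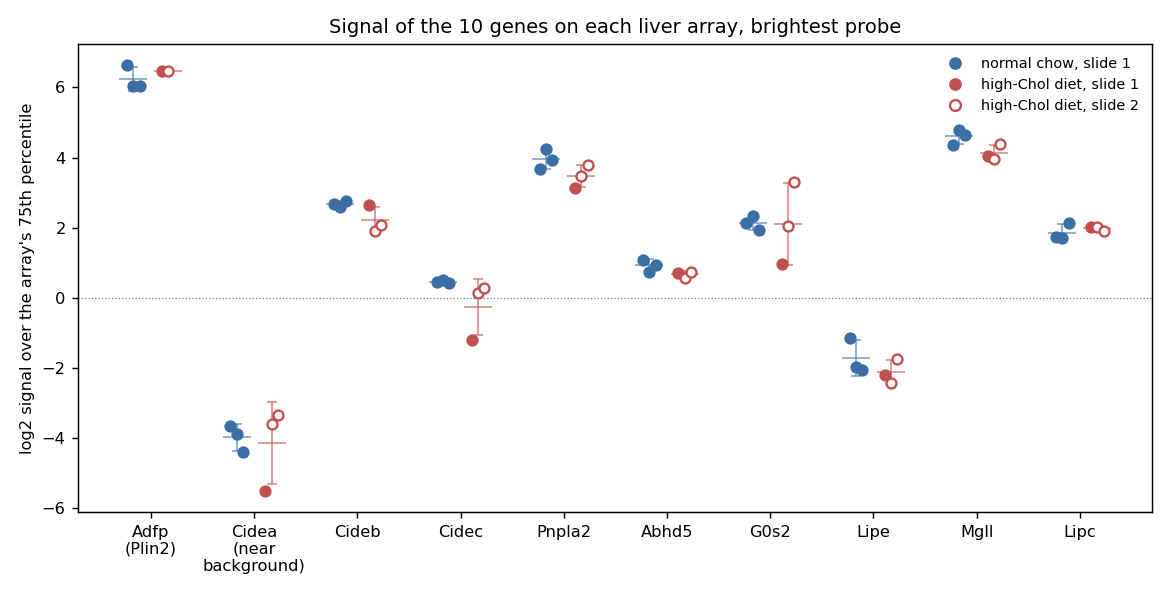
Log2 signal of the brightest probe of each gene on the 6 liver arrays, with the mean and SD of each diet as a bar and whisker. The high-Chol arrays of G0s2 spread over 2.34 and those of Cidec over 1.46, against 0.38 and 0.08 on normal chow, and the slide 1 array is the lowest of the high-Chol points for both genes.

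Among the coat proteins, Adfp encodes the main perilipin of hepatocytes. Its log2 signal was 6.63, 6.05 and 6.04 on normal chow, and 6.47 on slide 1 and 6.46 on slide 2 of the high-Chol diet. The sixth array had a spot marked as an outlier at 5.80, which was left out, so that Adfp has 3 values against 2. The values of the diets overlapped, and the log2 difference of high-Chol diet minus normal chow was 0.23 (95% interval -0.36 to 0.81, limma adjusted p = 0.60). With the outlier spot kept, a choice made after seeing the data, the difference was 0.0030, and with an array left out it ran from 0.12 to 0.42, highest without the first normal chow array. In the authors' values it was -0.24, on a scale where the median of all genes was -0.28.

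The CIDE proteins are represented by Cideb, the form made by hepatocytes and needed for lipidation of VLDL, by Cidec, also called FSP27, which is abundant in fat and in fatty livers, and by Cidea, known from brown fat. The log2 signal of Cidec was 0.44, 0.51 and 0.42 on normal chow, and -1.19 on slide 1 and 0.13 and 0.27 on slide 2 of the high-Chol diet. The 3 high-Chol arrays lay below every normal chow array, and 1 of them lay far below the other two. The fold was 1.65 in favor of normal chow, with a log2 difference of -0.72 (95% interval -1.60 to 0.17, limma adjusted p = 0.31). With slide as a block the difference rests on the single high-Chol array of slide 1 and was -1.65 (95% interval -2.09 to -1.21, limma adjusted p = 0.079), and without that array it was -0.25.

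Cideb showed the opposite split by slide. Its log2 signal was 2.67, 2.60 and 2.77 on normal chow, and 2.65 on slide 1 against 1.92 and 2.07 on slide 2 of the high-Chol diet. The slide 1 high-Chol array thus lay within the normal chow range, and both slide 2 arrays lay below it. The log2 difference was -0.47 (95% interval -0.98 to 0.04, limma adjusted p = 0.26), -0.03 with slide as a block, and -0.69 without the slide 1 high-Chol array, where it passed the threshold (limma adjusted p = 0.026). In that setting 4.56% of all genes were called lower. Slide 2 held high-Chol arrays alone, so that for Cideb slide and diet cannot be told apart.

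Cidea was near background and was not tested, since its probe was well above background on 2 of 3 arrays in each diet. Its log2 signal was -3.64, -3.88 and -4.40 on normal chow, and -5.50 on slide 1 and -3.59 and -3.34 on slide 2 of the high-Chol diet. The high-Chol values lay on both sides of the normal chow values. As for Cidec and G0s2, its lowest value was that of the high-Chol array on slide 1.

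The first lipase of the cascade gave the single call among the member probes. The upstream Pnpla2 probe had a log2 signal of 2.10, 2.35 and 2.21 on normal chow, and 1.51 on slide 1 and 0.98 and 1.07 on slide 2 of the high-Chol diet, so that every high-Chol array lay below every normal chow array. It was 2.05-fold lower on the high-Chol diet, a log2 difference of -1.03 (SE 0.19, 95% interval -1.48 to -0.59). Tested as a probe of its own among 23917 probes, it had a limma adjusted p of 0.040, and it was the only one of 13 tested member probes called, lower or higher, where 0.255% of all probes were called lower. The call was lost with slide as a block (log2 difference -0.71, limma adjusted p = 0.38) and in the settings given in the closing section, while the difference stayed between -1.28 and -0.67.

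The brighter Pnpla2 probe, close to the polyadenylation signal, had a log2 signal of 3.68, 4.24 and 3.94 on normal chow, and 3.15 on slide 1 and 3.48 and 3.79 on slide 2 of the high-Chol diet. The slide 2 arrays were the higher of the 3, and 1 of them lay within the normal chow range. Its log2 difference was -0.48 (95% interval -1.02 to 0.06, limma adjusted p = 0.27). Within an array, the brighter probe exceeded the upstream probe by 1.58, 1.89 and 1.73 on normal chow, by 1.64 on the slide 1 high-Chol array, and by 2.51 and 2.72 on slide 2. The high-Chol array of slide 1 lay within the normal chow range of this distance and both arrays of slide 2 lay above it. As slide 2 held no normal chow array, slide and diet cannot be told apart for the wider distance, and the difference was not tested. On slide 1 alone, the high-Chol array was below the normal chow mean by both probes, with log2 differences of -0.81 for the brighter and -0.71 for the upstream probe.

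**Figure D2:**
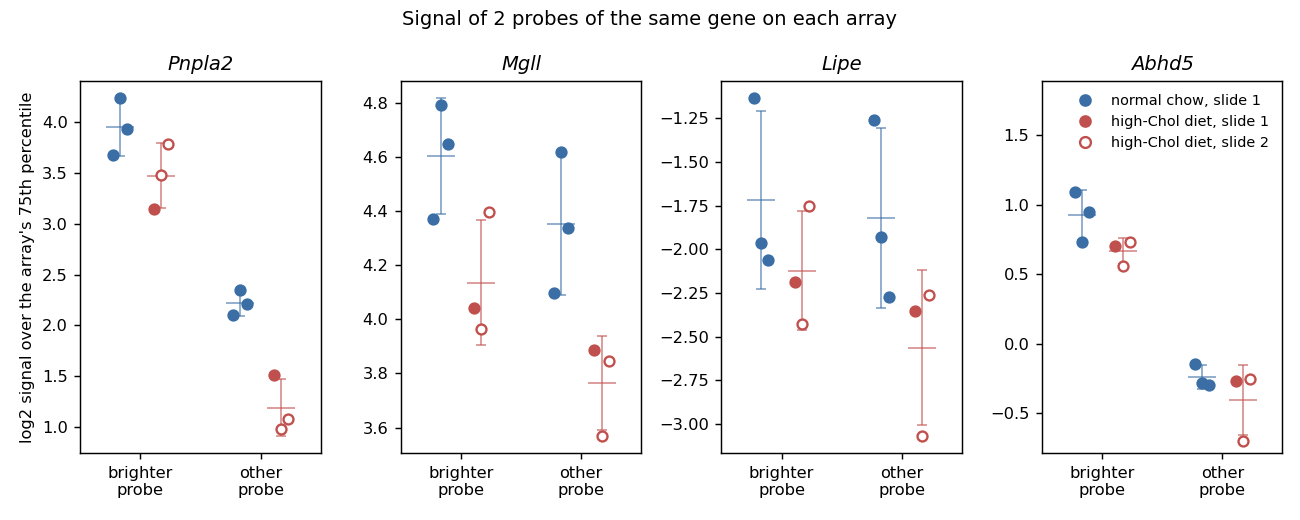
Log2 signal of 2 probes of Pnpla2, Mgll, Lipe and Abhd5 on each array, with the mean and SD of each diet; each panel has its own vertical scale. The upstream Pnpla2 probe separates the diets, and its 2 slide 2 points (0.98 and 1.07) are the lowest, whereas those of the brighter probe (3.48 and 3.79) are the highest of the high-Chol diet.

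The partners of this lipase showed no difference beyond their spread. Abhd5, its activator, had a log2 signal of 1.09, 0.73 and 0.95 on normal chow against 0.70, 0.56 and 0.74 on the high-Chol diet, with overlap at the lowest normal chow array. The log2 difference was -0.26 (95% interval -0.63 to 0.11, limma adjusted p = 0.37), and that of its dimmer probe was -0.17 (95% interval -0.58 to 0.25, limma adjusted p = 0.61 among probes), or -0.024 with slide as a block and -0.019 without slide 2 position 2. These intervals exclude a difference as large as 1.5-fold higher, not one of 1.5-fold lower for the brighter probe.

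G0s2, the inhibitor, varied most of the tested genes among the high-Chol arrays. Its log2 signal was 2.14, 2.33 and 1.94 on normal chow, and 0.97 on slide 1 and 2.04 and 3.31 on slide 2 of the high-Chol diet. These arrays held both the lowest and the highest value of the 6, a range of 2.34, and only 1.06% of the 16438 genes with a value on every array spread as widely on the high-Chol diet. The means of the diets were 2.14 ± 0.19 (SD, n = 3) and 2.10 ± 1.17 (SD, n = 3), with a log2 difference of -0.03 (95% interval -1.29 to 1.23, limma adjusted p = 0.98). The interval leaves room for a difference of more than 2-fold either way, and the sign depends on the array left out, from -0.63 to 0.54.

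Lipe and Mgll, the next enzymes of the cascade, both had lower means on the high-Chol diet by each probe that was tested. For Lipe, the probe across the intron had a log2 signal of -1.13, -1.96 and -2.06 on normal chow against -2.19, -2.43 and -1.75 on the high-Chol diet. The first normal chow array stood above the rest, and the remaining arrays of the diets overlapped. The log2 difference was -0.40 (95% interval -1.11 to 0.30, limma adjusted p = 0.44), and without that normal chow array it was -0.11. The other Lipe probe, 86 bases downstream, read -1.26, -1.93 and -2.27 on normal chow against -2.36, -3.07 and -2.26 on the high-Chol diet, a log2 difference of -0.74 (95% interval -1.50 to 0.01, limma adjusted p = 0.26 among probes), or -0.46 without the first normal chow array and -0.49 without slide 2 position 2. The 2 Lipe probes were within 0.21 of each other on slide 1 and 0.64 and 0.51 apart on slide 2. Those of Mgll were 0.16 to 0.31 apart on slide 1 and 0.40 and 0.55 on slide 2, and those of Abhd5 were 0.97 to 1.24 apart on slide 1 and 1.26 and 0.99 on slide 2.

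Mgll, which releases glycerol and the last fatty acid, had a log2 signal of 4.37, 4.79 and 4.65 on normal chow against 4.04, 3.97 and 4.40 on the high-Chol diet by its brightest probe. The highest high-Chol array just exceeded the lowest normal chow array. The log2 difference was -0.47 (SE 0.19, 95% interval -0.92 to -0.02), a 1.38-fold lower signal. The upstream probe read 4.10, 4.62 and 4.34 on normal chow against 3.89, 3.57 and 3.85 on the high-Chol diet, with no overlap, at a log2 difference of -0.59 (95% interval -1.04 to -0.14, limma adjusted p = 0.17 among probes). A probe of Mgll designed on a testis cDNA (A_52_P568977) was near background, at -5.82, -6.28 and -5.10 against -7.40, -6.68 and -4.18, and was not tested. With slide as a block, the differences of the tested probes were -0.56 and -0.47, close to those without the block, and neither passed.

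Hepatic lipase, the secreted member, had nearly the same mean on both diets. Lipc had a log2 signal of 1.75, 1.71 and 2.13 on normal chow against 2.03, 2.03 and 1.91 on the high-Chol diet, all 3 within the normal chow range. The log2 difference was 0.13 (95% interval -0.27 to 0.53, limma adjusted p = 0.67), so that a difference of 1.5-fold lower lies outside the interval.

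**Figure D3:**
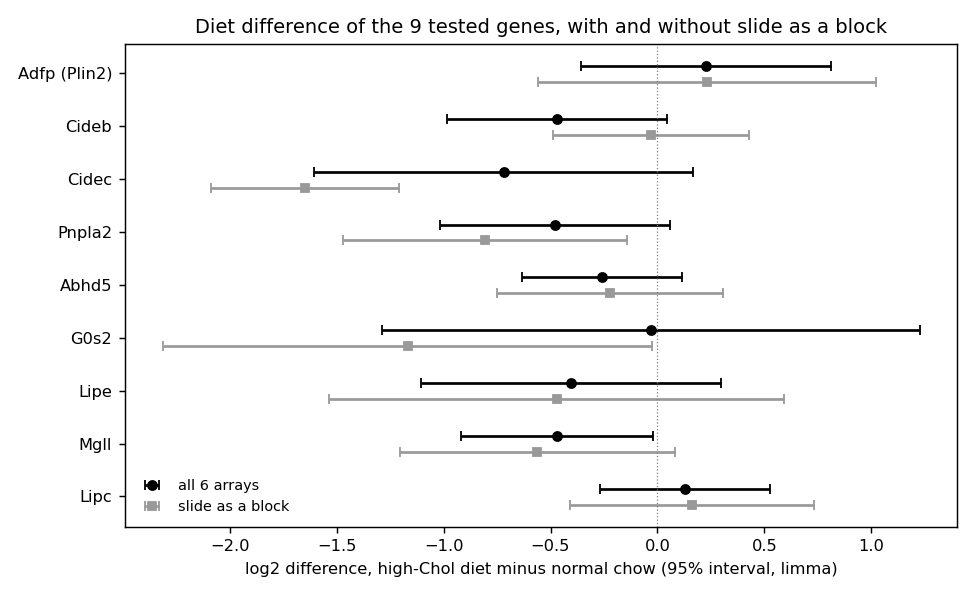
Log2 difference of high-Chol diet minus normal chow for the 9 tested genes with 95% intervals from limma, over all 6 arrays (black) and with slide as a block (grey), where the single high-Chol array of slide 1 carries the comparison. The block moves Cidec from -0.72 to -1.65, G0s2 from -0.03 to -1.17 and Cideb from -0.47 to -0.03, and moves the other genes by less, Pnpla2 to -0.81 and Mgll to -0.56.

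The balance between partners was compared as the log2 ratio of their signals within an array, which cancels the scaling of the array. The ratio of G0s2 over Pnpla2, inhibitor over enzyme, was -1.54, -1.91 and -1.99 on normal chow, and -2.18 on slide 1 and -1.45 and -0.48 on slide 2 of the high-Chol diet. The high-Chol arrays held both extremes, and the difference of the means was 0.45 (exact two-sided permutation p = 0.6). On slide 1 alone it had the opposite sign, -0.36.

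The ratio of Cidec over Cideb was -2.23, -2.09 and -2.35 on normal chow, and -3.84 on slide 1 and -1.78 and -1.79 on slide 2 of the high-Chol diet. The normal chow arrays lay between the slides of the high-Chol diet, with a difference of the means of -0.25 (exact two-sided permutation p = 1). The ratio of Adfp over Pnpla2, coat over lipase, was 2.96, 1.80 and 2.10 on normal chow against 3.33 and 2.97 on the 2 high-Chol arrays with a value. Both high-Chol arrays lay above the normal chow arrays, the nearest by a margin under the spread within either diet, and the difference of the means was 0.86 (exact two-sided permutation p = 0.2). With the outlier spot of Adfp kept, the third high-Chol array was at 2.01, within the normal chow range, and the difference was 0.48 (exact two-sided permutation p = 0.4). Both ratios with Pnpla2 read it by its brighter probe. With probes averaged per gene, the differences were 0.72 for G0s2 over Pnpla2 and 1.03 for Adfp over Pnpla2 (exact two-sided permutation p = 0.4 and 0.2). Ratios over the upstream Pnpla2 probe alone were not tested. The smallest p that these designs allow is 0.1, so that none of the 3 ratios could have passed 0.05.

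**Figure D4:**
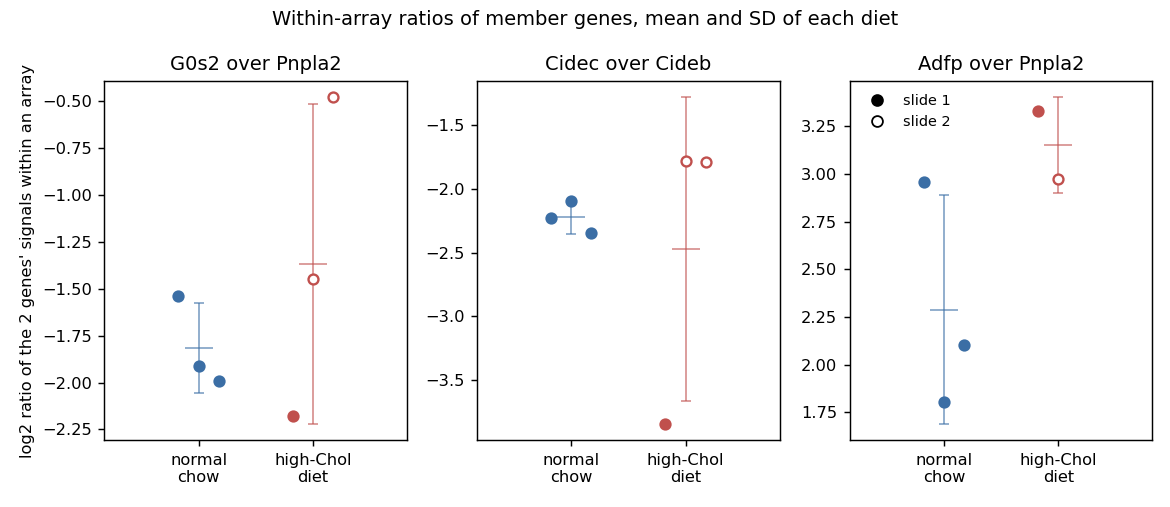
Log2 ratio of the signals of 2 genes within each array, with the mean and SD of each diet (blue, normal chow; red, high-Chol diet; open points, slide 2); each panel has its own vertical scale. The slide 1 and slide 2 high-Chol arrays lie on opposite sides of the normal chow arrays for G0s2 over Pnpla2 and for Cidec over Cideb.

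Genes that work beside the members were taken as 3 lists. Of 17 genes of the droplet coat and of droplet formation, all were tested and 0 were called (at an unadjusted limma p under 0.05, 2 higher and 3 lower of 17, against 12.3% and 8.83% of all genes), with a median log2 difference of -0.10. Plin1, the perilipin of fat cells, was well above background on 1 of 3 normal chow and 3 of 3 high-Chol arrays, so that it entered the test only through the diet where it was higher. Its difference of 0.89 (0.25 with slide as a block) is a description. Of the genes measured on both diets, the farthest from 0 were Fitm2, an endoplasmic reticulum protein of droplet budding, at -0.81 (limma adjusted p = 0.16), Plin5, the perilipin of oxidative tissues that binds adipose triglyceride lipase, at -0.53 (limma adjusted p = 0.19), and Bscl2, which encodes seipin, at -0.52 (limma adjusted p = 0.21). The log2 signal of Plin5 was 4.08, 4.51 and 4.30 on normal chow against 3.63, 3.63 and 4.02 on the high-Chol diet, and that of Fitm2 was 1.95, 2.53 and 2.39 against 1.19, 1.32 and 1.94. Both lay lower on every high-Chol array than on any normal chow array. Of the 16 genes of the list with a value on every array, 5 lay lower in this way, these among them, and 2 lay higher, where the shares of all genes are 14.0% and 11.9%.

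Of 16 other hydrolases of neutral lipid, 14 were tested, 12 had a lower mean on the high-Chol diet, against 52.2% of all genes, and the median log2 difference was -0.26. At an unadjusted limma p under 0.05, 1 was higher and 2 were lower. The single call, higher, where 2.69% of all genes were, was Lpl, lipoprotein lipase, which cleaves TG of lipoproteins outside the cell and is made by fat, muscle and macrophages. Its log2 signal rose from 1.44, 0.85 and 1.40 to 3.00, 3.28 and 3.03, which is 3.65-fold (log2 difference 1.87, SE 0.21, limma adjusted p = 0.0090), and the value with slide as a block was 1.76 (limma adjusted p = 0.11). The next 3 were Ddhd2, a TG hydrolase best known from brain, at -0.56, Aadac, an arylacetamide deacetylase of hepatocytes, at -0.49, and Abhd6, a monoacylglycerol hydrolase, at -0.47, with limma adjusted p of 0.23, 0.18 and 0.28. Probes of the carboxylesterases Ces1d, Ces1e, Ces1f and Ces1g may read each other, as these are close paralogs.

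Beside Lpl, markers of macrophages and Kupffer cells were higher on the high-Chol diet. Of 12 such markers 11 were tested, all 11 had a higher mean and 6 were called higher, against 47.8% and 2.69% of all genes, with Cd68 at 1.74 (limma adjusted p = 0.0060), and the summed signal was 183 to 216 on normal chow against 440 to 582 on the high-Chol diet. With slide as a block, the 11 differences lay between 0.29 and 1.99 and 0 were called (lowest limma adjusted p = 0.083, Cd68). Itgam was not well above background on any array. The lists were chosen with earlier results of these data known, so that these counts are a description. The part of these cells in the Lpl difference was not tested, and in whole liver RNA fewer or more cells of a type and less or more RNA per cell cannot be told apart. Of 7 adipocyte markers, Adipoq and Lep were not well above background on any array, Retn was on 1 and Adrb3 on 2, both on the high-Chol diet, which leaves Cfd, Fabp4 and Plin1 as tested. Their summed signal, nearly all of it from Fabp4, which macrophages also make, was 6.35 to 8.12 on normal chow against 10.0 to 14.2 on the high-Chol diet. Of 6 stellate cell markers, 0 were called (0 at an unadjusted limma p under 0.05), and the summed signal was 3.41 to 4.22 against 3.91 to 4.62.

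Of 11 transcription factors known to act on these genes, 10 were tested and 1 was called, lower, where 0.227% of all genes were (at an unadjusted limma p under 0.05, 0 higher and 3 lower). The study listed Ppara, Foxo1 and Rxra among the genes it picked from these arrays, and Lpl among the hydrolases, so the direction of these is not independent evidence. Creb3l3, which encodes the hepatic factor CREBH, fell from 6.11, 6.07 and 6.12 on normal chow to 5.36, 4.82 and 5.28 on the high-Chol diet, 1.93-fold (log2 difference -0.95, SE 0.18, limma adjusted p = 0.046), and was at -0.74 with slide as a block (limma adjusted p = 0.41). Ppara, the receptor for fatty acids that induces Plin2 and other droplet genes, had a log2 signal of 4.39 ± 0.35 against 3.46 ± 0.37 (SD, n = 3), with no overlap, at a log2 difference of -0.94 (limma adjusted p = 0.12). Foxo1, which induces Pnpla2, was at -0.75 and the immediate early gene Egr1 at 0.61 (limma adjusted p of 0.26 and 0.46). The median of the list was -0.26, and 0.082 with slide as a block. Of the 10 genes, 3 were more than 1.5-fold lower and 1 more than 1.5-fold higher, where the shares of all genes are 5.84% and 15.4%.

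**Figure D5:**
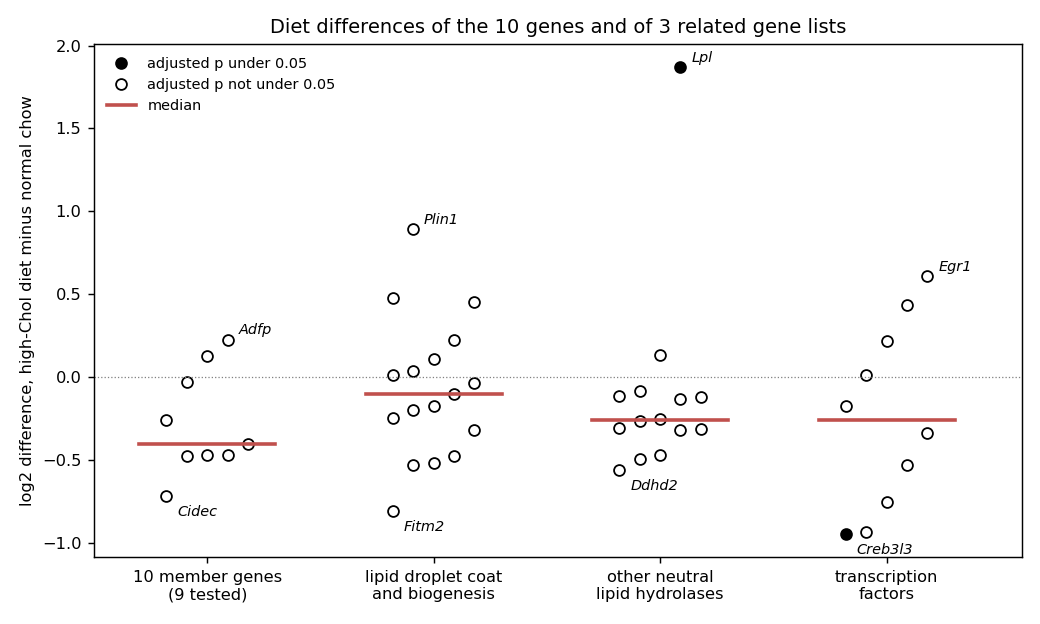
Log2 difference of high-Chol diet minus normal chow for each tested gene among the 10 genes and in 3 related lists, with the median of each as a red line and filled points for genes with a limma adjusted p under 0.05. Lpl (1.87) and Creb3l3 (-0.95) are the filled points, and the medians are -0.40, -0.10, -0.26 and -0.26 from left to right.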

How the data were processed

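Liver RNA was labeled with 1 dye and read on 60-base Agilent arrays of the mouse genome. The authors deposited spot intensity values per array, background-subtracted by Agilent Feature Extraction (9.1 in the submitters' processing notes; the file headers give 9.5.1.1 for slide 1 and 9.1.1.1 for slide 2), with no scaling between arrays. Log2 values of 23458 probes, a single one for each diet, were also deposited by the authors after normalization in Gene Spring GX, whose scaling is not given in the sources used here. The median of the differences in these values lay 0.25 below the median of those used here.

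Each log2 intensity was expressed against that array's 75th percentile over non-control spots. Saturated spots (0 to 5 per array) stayed in, and spots with an outlier flag (75 to 196) did not. Probes had to be well above background on every array of 1 diet or of both, and each gene was read by its brightest such probe, giving 16730 genes, or 23917 probes taken singly. limma 3.58.1 (R 4.3.3) compared 3 arrays against 3, with a fold threshold of 1.5. Ratios had an exact permutation test. The number of arrays limits the precision. limma was tested on simulated data that held no slide effect.

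The members and lists were chosen with earlier results of these data known. Named genes are all members with each probe, the 4 genes of each pathway list with the largest absolute difference among detected probes, genes called, and the defining markers. All 79 list genes were on the array. Gene names follow the array design, and 22944 of 41174 probes matched RefSeq accessions (GRCm38.p6, names only). Alternatives were a normexp background (offset 50), median and quantile scaling, other filters, probes averaged per gene, each probe by itself, slide as a block, the methods' t-test, the authors' values and leaving out each array. Keeping outlier spots, and running these settings on single probes, were chosen after seeing the data.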

Additional observations from a re-analysis of the deposited data

How the results depend on the processing

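No paired analysis was possible because no array carries a replicate number. The number of arrays and the signal over background (Cidea) limit what could be detected. Median scaling moved the median of all genes by -0.23 and the authors' values by -0.25. The median of the member genes was -0.64 and -0.65 there, which lies 0.38 and 0.37 below all genes, as in the main setting (0.38 below), and -0.14 with the normexp background, 0.03 below all genes. The normexp background called 0 of 16730 genes with limma (267 higher and 39 lower before adjustment). With median scaling, 1462 genes were higher and 2841 lower before adjustment, against 2064 and 1477 in the main setting, so that the background shares depend on the scaling.

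Across the alternatives, 0 member genes were called higher, and 0 lower except 1, Cideb, without the slide 1 high-Chol array, where 4.56% of all genes were called lower. The methods' t-test gave 0 of 9 genes at its unadjusted threshold and 2 of 13 probes, against 16.7% of all genes and 15.8% of all probes, and 0 after Benjamini-Hochberg adjustment. Genes over 1.5-fold lower were 1 at first (5.84% of all genes), 0 with normexp, 2 with probes averaged per gene and 3 with slide as a block. They were 5 with median scaling and 5 with the authors' values, where the median of all genes moved by -0.23 and -0.25. With an array left out they were 1 to 5 (5 without slide 2 position 3, 3 without the first normal chow array). The share of all genes is given for the main setting alone, so that these counts are not a result about the members. The call of the upstream Pnpla2 probe was lost (0 member probes called) with normexp, quantile scaling (limma adjusted p = 0.050), no filter, slide as a block, the methods' t-test and the removal of any array but the slide 1 high-Chol array, whose removal gave 2. With an array left out, the median of the members ran from -0.59 to -0.18, lowest without slide 2 position 3 and highest without the first normal chow array.

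G0s2 had the opposite sign with normexp (0.21), quantile scaling (0.055) and 3 of the arrays left out, over which it ran from -0.63 to 0.54, Lipc with median scaling (-0.11, or 0.15 relative to all genes) and the authors' values (-0.11, or 0.16), and Adfp with the authors' values (-0.24, or 0.039 relative to all genes). G0s2 over Pnpla2 was -0.36 with slide as a block and 0.0020 to 0.85 with an array left out. Cidec over Cideb was -1.62 with slide as a block and ran from -0.59 to 0.44 with an array left out, positive without the slide 1 high-Chol array. Adfp over Pnpla2 was 0.48 with the authors' values and with outlier spots kept.

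For droplet coat and formation, the median was -0.34 with median scaling, -0.38 with the authors' values, -0.041 with quantile scaling, 0.014 with probes averaged per gene, and -0.14 to -0.037 with an array left out, and 0 to 2 genes were called lower, 2 of 17 without the slide 1 high-Chol array (4.56% of all genes). For the hydrolases it was -0.50 with median scaling, -0.50 with the authors' values, -0.0015 with normexp, -0.14 with quantile scaling, -0.14 with slide as a block and -0.30 to -0.17 with an array left out, -0.17 without slide 2 position 2, and 0 genes were called higher with normexp, no filter, slide as a block and the methods' t-test. For the transcription factors it was -0.49 with median scaling, -0.50 with the authors' values, -0.061 with normexp, -0.14 with quantile scaling, -0.10 with probes averaged per gene, 0.082 with slide as a block and -0.43 to -0.09 with an array left out, and 0 genes were called lower with normexp, quantile scaling, no filter, slide as a block, the methods' t-test and the removal of any array but the slide 1 high-Chol array (range 0 to 1). The cause of these changes was not tested.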
